A study of Mus musculus with 43 samples.

Results

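Transcript levels in the whole gonad were compared between testis and ovary on the day of birth (P0), over all autosomal genes. The comparison took the 3 arrays labelled testis P0 and the 3 labelled ovary P0, 6 of the 43 arrays of the series, and covered 17400 autosomal genes of the 18184 genes measured. The series profiled mouse gonads in 15 groups from embryonic day 13 (E13) to birth with Affymetrix MOE430 v.2 arrays, to follow what the loss of Foxl2, of Wnt4 or of the germ cells does to the ovary. Each array was hybridised with RNA of the gonads of 1 mouse, freed of the adjoining mesonephros.

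The newborn testes came, by the study's methods, from Wnt4-null males, in which testis differentiation is described as partly defective. The labels give no genotype for these arrays, and the Foxl2 alleles of the males are not stated. The newborn ovaries were wild type and, by the methods, littermates of Foxl2-null ovaries, with no litter shared with the testes stated. Sex and the loss of Wnt4 therefore cannot be told apart in testis against wild-type ovary, and 3 further comparisons were set beside it. Newborn Wnt4-null ovaries, which by their labels also carried 1 Foxl2 null allele (Foxl2+/-), lack Wnt4 as the testes do. Newborn Kit mutant ovaries (Kit Wv/Wv, also Foxl2+/- by the labels) carry a Kit receptor allele that leaves the ovary with few germ cells. At E13, testes were compared with control ovaries, which are Foxl2+/- by their labels while the methods speak of wild-type littermates. The methods give a mixed C57BL/6J, NIH-Swiss/BC and CD1 origin for these ovaries and none for the testes. Each of these groups held 3 arrays.

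A gonad at birth holds germ cells, the supporting cells that surround them, steroid-producing cells, and a stroma of interstitial cells, vessels and muscle-like cells. In the testis the supporting cells are Sertoli cells, which form cords with the dormant male germ cells (prospermatogonia) inside, and fetal Leydig cells between the cords make androgens. In the ovary the germ cells have entered meiosis and arrest as oocytes, and pre-granulosa cells, driven by FOXL2 and by WNT4 and RSPO1 signalling, enclose them in the first follicles around birth. WNT4 also keeps steroid-producing cells out of the fetal ovary in mice.

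Signals are given as multiples of the common array mean, the value to which the authors scaled all arrays, so that a signal of 1 equals the average probe set. The brightness of different probe sets has no common scale, so levels of different genes were not compared. Where a summed signal over a list is given, it is dominated by the brightest probe sets and only describes the arrays. Differences are log2 testis minus log2 ovary, taken after 1% of the common mean was added to each signal, which shrinks the differences of dim genes, and are given with their standard error (SE). A gene was called higher or lower at an adjusted p below 0.05 in limma, with the Benjamini-Hochberg adjustment over all 18184 genes. All comparisons of 3 arrays with 3 came from 1 fit, so a gene's SE is the same in each of them.

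The median signal over probe sets was 0.233 to 0.261 on the testis arrays and 0.197 to 0.224 on the ovary arrays. The X-linked Xist RNA, which coats the inactive X chromosome of females, measured 0.0304, 0.0268 and 0.0607 in the testes and 14.2, 9.08 and 11.5 in the ovaries, which separated all 6 arrays by their labelled sex. Wnt4 itself measured 0.170, 0.164 and 0.327 in the testes, against 0.726, 0.581 and 0.745 in the wild-type ovaries, a log2 difference of -1.65 ± 0.28 (adjusted p = 1.68e-05). A second probe set of Wnt4 averaged 0.0324 in the testes and 0.684 in the ovaries. Whether either probe set lies in the deleted part of the gene is not known, so neither checks the genotype. Of 27 defining markers of the oocyte, supporting, steroidogenic and stromal classes, 26 were measured, and Insl3, a hormone of Leydig cells, was not analysed here. The 1 probe set of the Sertoli-cell hormone gene Amh did not separate the gonads. It read 0.689, 0.764 and 0.621 in the testes and 0.573, 0.426 and 0.776 in the ovaries (0.26 ± 0.19, adjusted p = 0.325). Amh was not called at E13 either (0.34). The study names Amh among genes specific to the embryonic testis, and whether this probe set reports the transcript was not tested.

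In testis against wild-type ovary, 2228 autosomal genes (12.8%) were higher and 3033 (17.4%) were lower, and the 3 testis values did not overlap the 3 ovary values for 7277 genes (41.8%). Against Wnt4-null ovaries 1126 genes (6.47%) were higher and 1476 (8.48%) lower. Against Kit mutant ovaries 2072 (11.9%) were higher and 3478 (20.0%) lower, and at E13 628 (3.61%) were higher and 884 (5.08%) lower. These shares are the background against which the gene lists below are read. The median log2 difference of all autosomal genes was 0.06, 0.06, -0.12 and -0.04 in the same 4 comparisons. Centring each array on its median turned the count against wild-type ovaries to 1343 higher and 3825 lower, so the share of calls that were higher was 26.0% instead of 42.3%, and against Wnt4-null ovaries it gave 613 higher and 2109 lower (22.5% instead of 43.3%). The counts against Wnt4-null ovaries also depended on single arrays, with 699 higher and 949 lower without testis 1, 718 higher without testis 3, 969 lower without Wnt4-null ovary 2, and 645 higher and 913 lower without Wnt4-null ovary 3. The comparisons at birth share the testis arrays and are not independent of each other, and differences between the kinds of ovary were not tested. In whole gonads, fewer cells of a type and less RNA per cell cannot be told apart.

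The list medians in the heat map ran in both directions. Oocyte transcription factors, maternal-effect genes and zona pellucida genes had the most negative medians against wild-type ovaries, at -4.89, -4.26 and -3.76. Sertoli-cell genes (2.25) and steroidogenic genes (1.47) had the most positive. Against Wnt4-null ovaries the Sertoli median was 0.89 and the steroidogenic median 0.01. Lists of endothelial and macrophage genes, and of erythroid genes, which the heat map leaves out, stayed between 0.12 and 0.19 against wild-type ovaries.

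**Figure D1:**
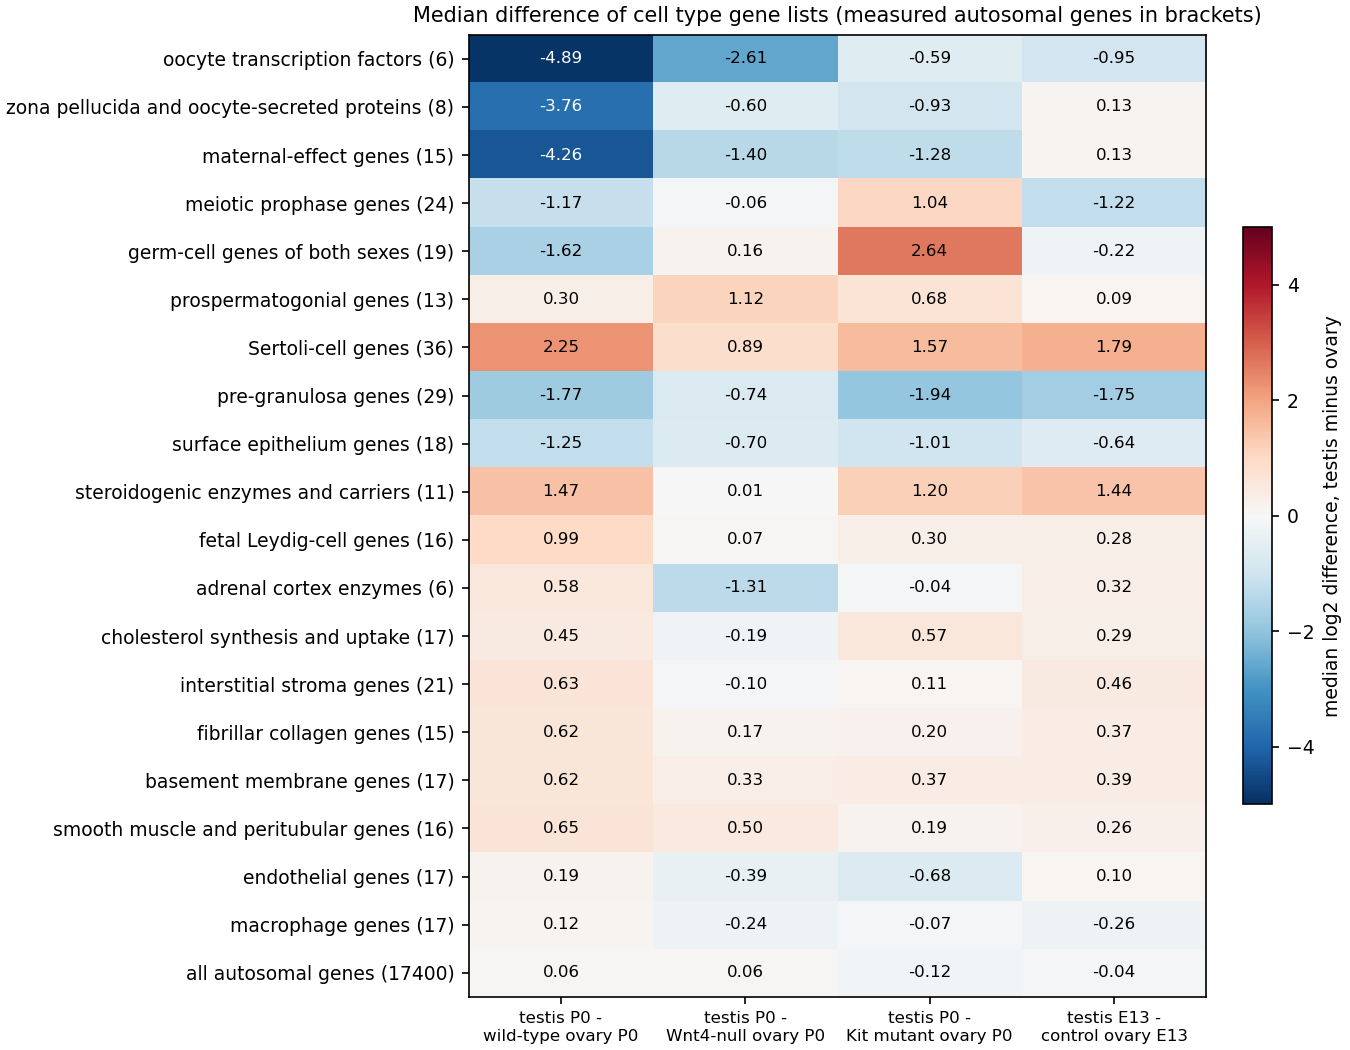
Heat map of the median log2 difference of the cell type and tissue gene lists (rows, with all autosomal genes as the last row) in 4 comparisons (columns): newborn testis minus wild-type, Wnt4-null and Kit mutant ovary, and testis minus control ovary at E13; each cell prints its median and the colour runs from blue (lower in testis) to red (higher in testis). The 3 oocyte lists are lowest against wild-type ovary (-4.89, -4.26 and -3.76), and the steroidogenic list reads 1.47 against wild-type and 0.01 against Wnt4-null ovary.

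Of the oocyte transcription factors, 5 of 6 measured were lower in testis than in wild-type ovary and none was higher. Figla, which activates the zona pellucida genes, measured 0.0508, 0.0201 and 0.0779 in the testes, against 4.78, 8.89 and 6.57 in the ovaries (-6.91 ± 0.72, adjusted p = 2.36e-09). Nobox, a homeobox factor needed for early follicles, stood at 0.0224, 0.0268 and 0.0553 in the testes and 4.02, 6.51 and 5.09 in the ovaries (-6.90 ± 0.66, adjusted p = 4.13e-10). No testis came near any ovary for either gene. Lhx8, a LIM-homeobox factor of oocytes, read 0.0509, 0.0229 and 0.0220 in the testes against 6.0, 7.70 and 6.64 in the ovaries (-7.40 ± 0.86, adjusted p = 2.24e-08). Sohlh1, a helix-loop-helix factor that acts in germ cells of both sexes, was lower to a smaller degree and remained well measured in the testis, at 1.3, 0.664 and 0.945 against 5.33, 7.39 and 7.51 in the ovaries (-2.82 ± 0.48, adjusted p = 2.00e-05). Its partner Sohlh2 fell by 2.89 ± 0.56 (adjusted p = 0.000136). Taf4b, a subunit of the basal transcription machinery that is rich in gonads, was the member not called (-0.39 ± 0.49, adjusted p = 0.580).

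FIGLA is known in mice to act through E-boxes, the motif CANNTG, in the promoters of zona pellucida genes. The motif was therefore looked for in the 250 bases before the start of the measured oocyte genes of 3 lists (transcription factors, zona and secreted proteins, maternal-effect genes). RefSeq promoters on build GRCm38.p6 matched 21 of these 29 genes. CANNTG, which reads the same on both strands, was present in 19 of the 21 (90.5%) and in 66.2% of all 32851 promoters of that length. Its form CACGTG was present in 4 of the 21 (19.0%) and in 6.02% of all. The 3 promoters below are shown because they hold several matches and belong to genes that were lower in testis together (Zp3, Sohlh1 and Khdc3); capitals mark CANNTG, and each run ends at the base before the annotated start.
Zp3, chr5:135979855-135980104, plus strand: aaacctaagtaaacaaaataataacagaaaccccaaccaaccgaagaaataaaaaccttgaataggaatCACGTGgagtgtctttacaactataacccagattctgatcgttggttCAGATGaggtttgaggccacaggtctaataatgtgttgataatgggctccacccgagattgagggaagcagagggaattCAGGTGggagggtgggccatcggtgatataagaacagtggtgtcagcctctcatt
Sohlh1, chr2:25847249-25847498, minus strand: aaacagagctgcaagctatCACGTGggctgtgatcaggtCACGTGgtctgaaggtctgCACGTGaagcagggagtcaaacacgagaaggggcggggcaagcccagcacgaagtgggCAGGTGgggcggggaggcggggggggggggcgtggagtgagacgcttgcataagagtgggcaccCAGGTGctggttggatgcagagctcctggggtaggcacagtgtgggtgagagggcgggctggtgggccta
Khdc3, chr9:73102148-73102397, plus strand: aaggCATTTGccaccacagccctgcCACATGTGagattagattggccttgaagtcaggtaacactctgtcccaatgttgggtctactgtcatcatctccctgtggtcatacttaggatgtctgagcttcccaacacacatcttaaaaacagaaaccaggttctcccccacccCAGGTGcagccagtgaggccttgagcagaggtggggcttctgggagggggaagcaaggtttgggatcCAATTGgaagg
The Zp3 window held 3 matches of CANNTG, 1 of them CACGTG. The Sohlh1 window held 5, of which 3 were CACGTG. The Khdc3 window held 5 and no CACGTG, and 2 of its matches overlap in the run in capitals near its 5′ end. A match in these letters is a description of the sequence only.

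Genes of the zona pellucida, the glycoprotein coat of the oocyte, and of other proteins the oocyte secretes were lower for 6 of 8 measured members, and none was higher. Zp2 measured 7.63e-05, 0.0126 and 0.0167 in the testes, against 1.77, 6.64 and 3.96 in the ovaries (-7.63 ± 0.58, adjusted p = 1.99e-12). Zp3, whose promoter is given above, measured 0.0319, 0.0252 and 0.0158 in the testes, against 0.983, 4.40 and 2.89 in the ovaries (-6.12 ± 1.17, adjusted p = 0.000103). Wild-type ovary 1 had the lowest signal of the 3 ovaries for both genes, and still lay far above every testis. Gdf9, a growth factor that the oocyte sends to its granulosa cells, had 0.130, 0.193 and 0.316 in the testes and 2.60, 6.70 and 5.04 in the ovaries (-4.40 ± 0.33, adjusted p = 1.94e-12). The 2 members not called are growth factors that other gonadal cells can also make.

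Maternal-effect genes, whose products the oocyte stores for the embryo, were lower for 13 of 15 measured members. Dppa3, which protects the maternal genome from demethylation after fertilisation, had the largest difference of the autosomal genes named here in testis against wild-type ovary, at 0.122, 0.0874 and 0.165 in the testes against 21.6, 49.0 and 46.3 in the ovaries (-8.12 ± 0.69, adjusted p = 2.94e-11). Nlrp5, a part of the subcortical maternal complex, measured 0.0235, 0.0759 and 0.0807 in the testes and 2.13, 18.3 and 8.83 in the ovaries (-6.78 ± 0.62, adjusted p = 1.51e-10). Ovary 1 again had the lowest oocyte signal and ovary 2 the highest. Other members of that complex were also lower, namely Padi6 (-5.64 ± 0.56), Ooep (-5.71 ± 0.79), Tle6 (-2.97 ± 0.26) and Khdc3 (-3.27 ± 0.41). Ybx2 and Cpeb1, which hold stored mRNA silent in the oocyte, fell by 4.95 ± 0.37 and 4.26 ± 0.35. Tcl1 (-4.20 ± 0.66) and Btg4 (-4.61 ± 0.49), known for their part in the first cleavages of the mouse embryo, were lower too.

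The summed signal of the maternal-effect list was 1.77 to 2.75 in the testes and 39.6 to 108 in the wild-type ovaries, and that of the zona list 0.673 to 1.13 against 6.30 to 20.0. Against Wnt4-null ovaries fewer of these genes were called, with 3 of 6 transcription factors, 2 of 8 zona genes and 8 of 15 maternal-effect genes lower. Figla and Dppa3 were lower there by 4.45 and 6.01, while Gdf9 (-0.61) and Zp3 (-1.48) were not called. Against Kit mutant ovaries 2 transcription factors were lower and 2 were higher, Sohlh2 (1.82) and Taf4b (2.97), and 2 zona genes and 8 maternal-effect genes were lower with none higher. Zp3 read 0.0201, 0.0220 and 19.2 on the 3 Kit mutant arrays, so its mean in that group rests on 1 array.

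Meiotic prophase genes gave a different picture, with 11 of 24 measured members lower in testis, 1 higher and 12 not called (median -1.17). Sycp3, a protein of the axis of meiotic chromosomes, measured 1.3, 0.833 and 0.977 in the testes, against 8.95, 11.5 and 7.39 in the ovaries (-3.15 ± 0.39, adjusted p = 7.98e-08). Other parts of the synaptonemal complex and of meiotic cohesin were lower as well, among them Sycp1 (-2.24 ± 0.49), Syce3 (-2.79 ± 0.40) and Smc1b (-3.65 ± 0.64). Syce2 fell by 1.27 ± 0.21 and kept a high signal in the testes (5.67, 4.49 and 5.92, against 11.6, 14.5 and 12.6 in the ovaries). Among the members not called were Spo11 (-0.23 ± 0.47, adjusted p = 0.744), which makes the double-strand breaks of recombination, and the strand-exchange gene Dmc1 (0.75 ± 0.41, adjusted p = 0.175).

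Stra8, the retinoic acid target that starts meiosis, was the member that was higher in testis, at 0.552, 0.0821 and 0.576 against 0.0805, 0.0438 and 0.0330 in the ovaries (2.39 ± 0.91, adjusted p = 0.0438). Testis 2 lay next to the highest ovary for this gene. The call was lost with median-centred arrays or quantile normalisation, and without testis 1 (1.97, adjusted p = 0.159), testis 3 (1.94, adjusted p = 0.170), ovary 2 (2.32, adjusted p = 0.105) or ovary 3 (2.16, adjusted p = 0.126). The order was the opposite at E13, when Stra8 averaged 0.142 in testes and 9.11 in control ovaries (-5.75). Against Wnt4-null ovaries 1 meiotic gene was lower, Sycp3 (-1.48), and against Kit mutant ovaries 13 were higher and 1 was lower.

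Genes that germ cells of both sexes express were lower in testis for 11 of 19 measured members (median -1.62), but the most used germ cell markers were not among them. Dazl, an RNA-binding protein of germ cells, measured 3.67, 2.03 and 3.67 in the testes and 4.06, 5.38 and 4.16 in the ovaries (-0.58 ± 0.39, adjusted p = 0.282). Ddx4, the germ cell helicase, measured 0.952, 0.509 and 0.770 in the testes and 1.25, 1.35 and 1.06 in the ovaries (-0.74 ± 0.59, adjusted p = 0.364). Every testis lay below every ovary for both genes, although neither passed the test. Against Kit mutant ovaries both were higher in testis, by 4.15 for Dazl and 3.58 for Ddx4, and 13 of the 19 members were higher and 1 was lower there. Among those lower than in wild-type ovaries, Kit, the receptor of the survival factor KITL, had 0.170, 0.0756 and 0.163 in the testes against 2.64, 3.62 and 2.50 in the ovaries (-4.38 ± 0.43, adjusted p = 5.06e-10). The transposon-defence genes Mov10l1 (-3.79 ± 0.45), Tdrd1 (-3.30 ± 0.59) and Piwil2 (-1.62 ± 0.47) were lower too. Piwil2 stayed bright in the testes, at 3.69, 2.27 and 3.71 against 9.45, 9.70 and 9.95 in the ovaries. The summed signal of the list was 12.4 to 21.1 in the testes and 54.9 to 71.1 in the ovaries.

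Prospermatogonial genes were the germ cell list with more rises than falls, with 5 of 13 measured members higher and 2 lower (median 0.30). Ret, the receptor through which GDNF maintains spermatogonia, measured 0.920, 0.188 and 0.626 in the testes and 0.0325, 0.0250 and 0.0607 in the ovaries (3.37 ± 0.55, adjusted p = 9.25e-06). Morc1, which represses transposons in male germ cells, had 0.551, 0.275 and 0.632 in the testes against 0.0666, 0.263 and 0.167 in the ovaries (1.60 ± 0.53, adjusted p = 0.0209). Testis 2 was the lowest testis for both genes, as it was for Dazl and Ddx4. Zbtb16, a transcriptional repressor found in spermatogonial stem cells (2.17 ± 0.68), and Egr4 (1.25 ± 0.32) were also among the rises. Id4 (-0.94 ± 0.24) was among the falls. Other probe sets of Zbtb16 gave 0.08, not called, and 3.09, called. Leaving out testis 1 left 2 rises, with Zbtb16 (1.61, adjusted p = 0.106) and Morc1 (1.47, adjusted p = 0.0690) no longer called. Morc1 also lost its call without testis 3 (1.37, adjusted p = 0.0919) or ovary 1 (1.09, adjusted p = 0.155), and leaving out ovary 1 left 3 rises. Tex19.1, which guards the genome of germ cells in both sexes, was level, at 4.39, 2.13 and 4.01 in the testes and 3.22, 4.13 and 4.16 in the ovaries (-0.19 ± 0.54, adjusted p = 0.830), and was 4.43 higher than in Kit mutant ovaries. Without testis 2 its difference from wild-type ovaries was 0.14.

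**Figure D2:**
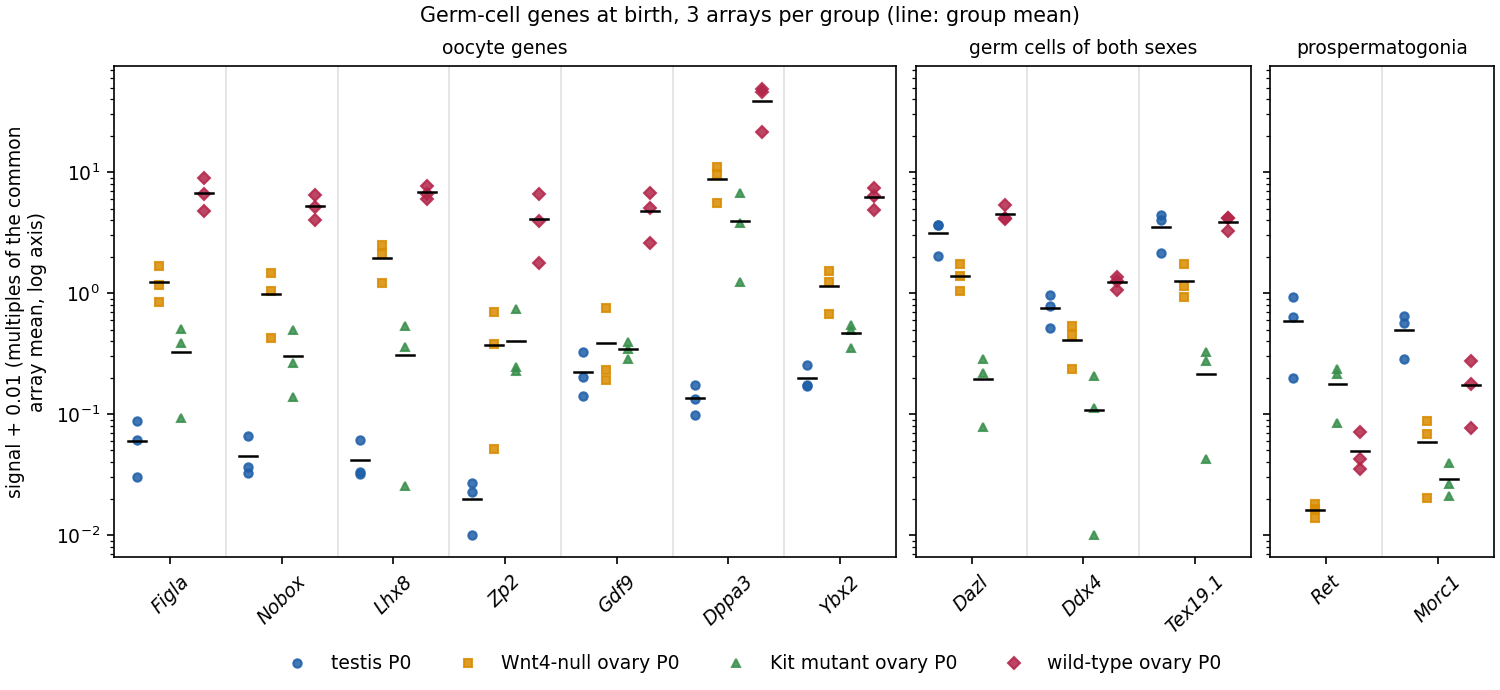
Signal + 0.01 (log axis, multiples of the common array mean) of 12 germ cell genes, 1 point per array, in newborn testis (circles), Wnt4-null ovary (squares), Kit mutant ovary (triangles) and wild-type ovary (diamonds), 3 arrays each; black lines are group means. The oocyte genes Figla to Ybx2 have lower group means in testis than in wild-type ovary. For Lhx8, Kit mutant ovary 1 (0.0156) lies below every testis. Dazl, Ddx4 and Tex19.1 lie close in testis and wild-type ovary and low in Kit mutant ovary. Ret reaches 0.920 in testis against at most 0.0607 in wild-type ovary.

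Supporting cell lists moved in opposite directions. Of the Sertoli-cell genes, 28 of 36 measured were higher in testis than in wild-type ovary and 2 were lower. Sox9, the factor that sets the Sertoli fate, measured 2.87, 2.39 and 2.87 in the testes, against 0.789, 0.216 and 0.283 in the ovaries (2.85 ± 0.36, adjusted p = 1.24e-07). Dmrt1, which keeps Sertoli cells from turning into granulosa-like cells and also acts in germ cells, had 5.53, 4.26 and 4.26 in the testes and 0.0596, 0.0636 and 0.0252 in the ovaries (6.37 ± 0.49, adjusted p = 2.76e-12). The ranges of both genes were far apart. Hsd17b3, which makes testosterone from androstenedione and is made by Sertoli cells in the fetal mouse testis, had the largest rise of the autosomal genes named here, at 9.14, 3.68 and 7.76 in the testes against 0.0450, 0.0295 and 0.0335 in the ovaries (7.14 ± 0.47, adjusted p = 9.88e-14).

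Several secreted products of Sertoli cells were among the genes that were higher. Cst9, a cystatin of the fetal testis, measured 7.32, 6.57 and 6.45 in the testes and 0.213, 0.0538 and 0.174 in the ovaries (5.62 ± 0.45, adjusted p = 7.99e-12). Ptgds, the prostaglandin D2 synthase that reinforces Sox9, had 8.89, 5.92 and 8.20 in the testes against 0.429, 0.701 and 0.757 in the ovaries (3.61 ± 0.46, adjusted p = 1.44e-07). Defb19 (3.96 ± 0.38), Cbln4 (5.79 ± 0.44), Gdnf (2.56 ± 0.41) and the retinoic acid degrading enzyme Cyp26b1 (3.07 ± 0.35) were higher as well. Fshr, the receptor of follicle-stimulating hormone, had 0.461, 0.244 and 0.450 in the testes against 0.0186, 0.0270 and 0.0172 in the ovaries (3.63 ± 0.49, adjusted p = 3.94e-07). Of the 6 members not called, Amh among them, Nr5a1 (0.24 ± 0.27, adjusted p = 0.547), a factor of supporting and steroidogenic cells, had a second probe set that was 1.49 higher and called. Wt1 (-0.95 ± 0.14, adjusted p = 1.35e-06), a factor of supporting cells of both sexes, and Fgf9 (-1.68 ± 0.38, adjusted p = 0.000852) were the 2 members lower in testis.

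Against Wnt4-null ovaries, 20 of the 36 Sertoli-cell genes were higher and 3 were lower, and the members divided. Sox9 (2.07), Dmrt1 (4.34), Ptgds (3.80), Fshr (2.92) and Tesc (2.72) were still called higher. Inhbb, a subunit of activin B and inhibin B, measured 6.51, 5.77 and 6.51 in the testes and 1.13, 1.21 and 1.26 in wild-type ovaries (2.37 ± 0.21), but averaged 6.11 in Wnt4-null ovaries (0.04, not called). Dhh, the hedgehog ligand of Sertoli cells, measured 7.64, 2.99 and 5.62 in the testes against 0.0705, 0.0965 and 0.0982 in wild-type ovaries (5.70 ± 0.37, adjusted p = 5.00e-14), and averaged 2.95 in Wnt4-null ovaries (0.78, not called). A second, dimmer probe set of Dhh did not separate testis and wild-type ovary (0.18). Hsd17b1, an enzyme of oestrogen formation, averaged 2.50 in testes, 4.87 in Wnt4-null ovaries and 0.0937 in wild-type ovaries, and Mmd2 averaged 4.07, 3.18 and 0.151 in the same order. Nrg1, a growth factor, was 1.66 lower than in Wnt4-null ovaries. The summed signal of the list was 132 to 181 in testes, 80.3 to 92.1 in Wnt4-null ovaries and 45.6 to 49.7 in wild-type ovaries.

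Pre-granulosa genes were lower for 22 of 29 measured members, and none was higher. Foxl2, the factor that maintains the granulosa fate, measured 0.214, 0.145 and 0.000528 in the testes and 16.8, 14.6 and 16.4 in the ovaries (-7.80 ± 0.52, adjusted p = 9.88e-14). Irx3, an Iroquois factor of early granulosa cells, had 0.169, 0.0709 and 0.0972 in the testes against 5.82, 4.98 and 4.09 in the ovaries (-5.41 ± 0.43, adjusted p = 7.99e-12). Runx1, which shares targets with FOXL2, had 0.131, 0.156 and 0.213 in the testes against 3.0, 2.70 and 4.20 in the ovaries (-4.23 ± 0.26, adjusted p = 2.31e-14). Every one of the 3 was more than 10 times as bright in each ovary as in any testis. Fst, which binds and blocks activin, was lower by 3.65 ± 0.33 (0.0330, 0.0833 and 0.106 against 1.08, 0.920 and 0.895). Emx2 (-3.75 ± 0.26), Irx5 (-4.84 ± 0.51) and the anti-Müllerian hormone receptor Amhr2 (-1.38 ± 0.24) were lower too. Kitl, the ligand of KIT, was not called (-0.25 ± 0.25, adjusted p = 0.491), nor were 6 others, among them the G protein subunit Gng13 (-0.88 ± 0.88, adjusted p = 0.479). Ovary 3 read 2.39 for Gng13 while ovaries 1 and 2 read 0.0623 and 0.0755, and without ovary 3 the difference was 0.76.

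The list's summed signal was 19 to 21 in testes, 42.4 to 50.4 in Wnt4-null ovaries and 79.6 to 90.4 in wild-type ovaries. Of its members 14 were lower than in Wnt4-null ovaries, Foxl2 by 6.26 and Runx1 by 3.65 among them, and 25 were lower and 1 was higher than in Kit mutant ovaries, which hold few germ cells. Lgr5, a receptor of R-spondins, was 3.08 ± 0.44 lower than in wild-type ovaries and lower than in Kit mutant ovaries too (-4.47), but not called against Wnt4-null ovaries (-0.36).

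**Figure D3:**
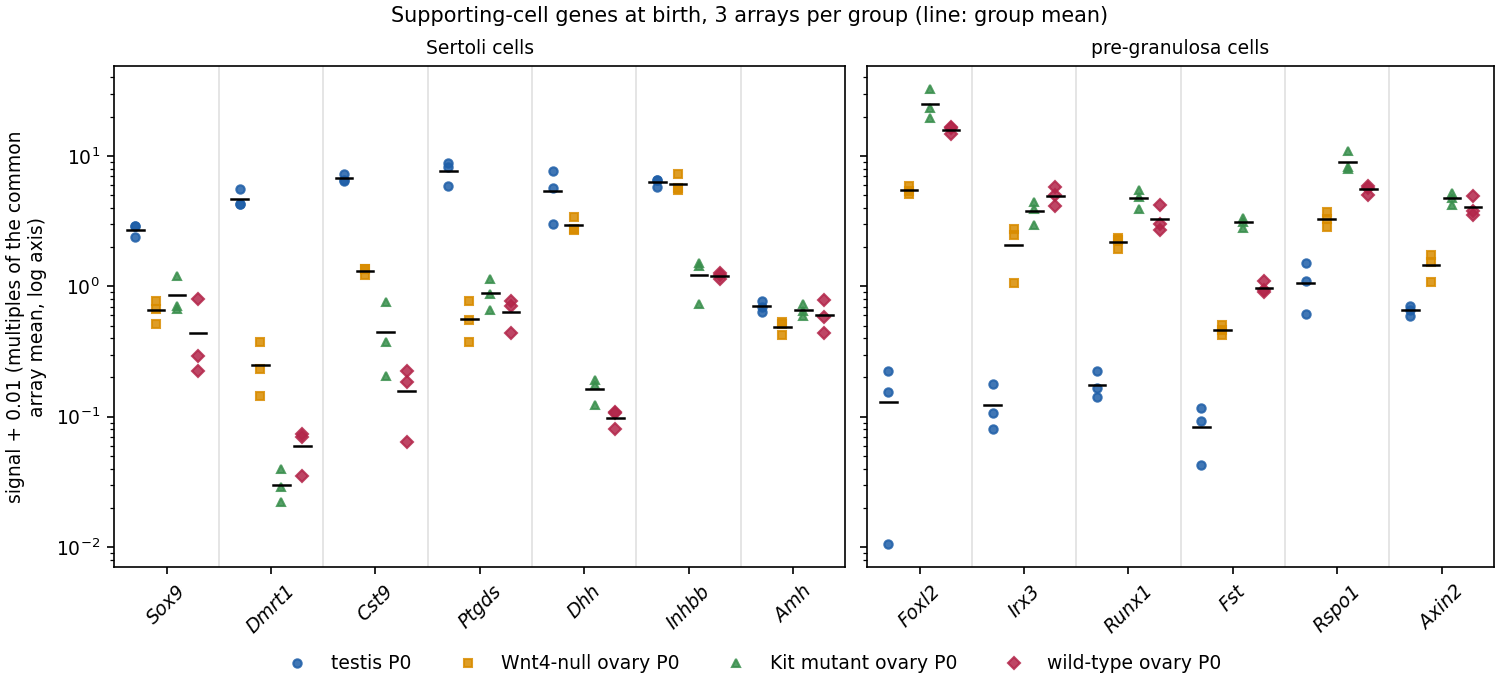
Signal + 0.01 (log axis, multiples of the common array mean) of 13 supporting cell genes, 1 point per array, in newborn testis (circles), Wnt4-null ovary (squares), Kit mutant ovary (triangles) and wild-type ovary (diamonds), 3 arrays each; black lines are group means. Sox9 to Dhh are high in testis, Dhh and Inhbb are also high in Wnt4-null ovary (means of 2.95 and 6.11), Amh overlaps between testis and wild-type ovary, and Foxl2 to Axin2 are low in testis.

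Surface epithelium genes were lower in testis for 10 of 18 measured members and higher for 2 (median -1.25). Podxl, a sialomucin of the cell surface, measured 0.626, 1.98 and 1.51 in the testes and 8.01, 6.01 and 7.20 in the ovaries (-2.50 ± 0.23, adjusted p = 1.79e-10). Krt19, a keratin of the covering epithelium, had 0.250, 0.820 and 1.08 in the testes against 2.35, 3.45 and 4.01 in the ovaries (-2.37 ± 0.61, adjusted p = 0.00279). Testis 1 was the lowest array for both genes. Krt8 (-1.31 ± 0.25), Krt18 (-1.28 ± 0.27) and the retinoic acid synthesis gene Aldh1a2 (-1.26 ± 0.21) were lower too. Leaving out ovary 2 left 6 falls.

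Steroidogenic enzymes and carriers were higher in testis than in wild-type ovary for 7 of 11 measured members and lower for 3. Star, which carries cholesterol into the mitochondrion, measured 2.32, 6.45 and 5.88 in the testes and 0.670, 0.622 and 1.05 in the ovaries (2.54 ± 0.33, adjusted p = 1.62e-07). Cyp11a1, which cleaves the cholesterol side chain, had 1.31, 4.14 and 4.45 in the testes against 0.0964, 0.0508 and 0.0922 in the ovaries (5.06 ± 0.65, adjusted p = 1.48e-07). Other, dimmer probe sets of Cyp11a1 gave 1.25, called, and 0.87, not called. Cyp17a1, which leads to androgens, had 0.532, 4.63 and 4.29 in the testes against 0.165, 0.00294 and 0.0407 in the ovaries (5.51 ± 0.70, adjusted p = 1.26e-07). Testis 1 was the lowest testis for all 3 genes and yet above every ovary. Hsd3b1 (1.47 ± 0.35), Scarb1 (1.92 ± 0.27), Fdx1 (0.88 ± 0.15) and Hsd17b3 completed the rises, and Akr1c18 (-3.55 ± 0.73), which inactivates progesterone, and Cyb5a (-0.66 ± 0.16), which helps CYP17A1 to make androgens, were among the 3 that were lower.

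Against Wnt4-null ovaries 1 of the 11 steroidogenic genes was higher, Hsd17b3 (2.90), and 1 was lower, Cyb5a (-1.33). Star averaged 4.88 in testes, 4.68 in Wnt4-null ovaries and 0.781 in wild-type ovaries. Cyp17a1 averaged 3.15, 2.46 and 0.0695 in the same order, and Cyp11a1 3.30, 2.53 and 0.0798. Differences from the Wnt4-null ovaries were -0.01 for Star, 0.01 for Cyp17a1 and 0.29 for Cyp11a1, none called. The summed signal of the list was 35.8 to 48.4 in testes, 30.3 to 47.4 in Wnt4-null ovaries and 14.8 to 15.9 in wild-type ovaries. Against Kit mutant ovaries, which carry Wnt4, 7 were higher and 3 lower, the counts found against wild-type ovaries.

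Fetal Leydig-cell genes were higher for 8 of 16 measured members and lower for 2 (median 0.99), and leaving out ovary 1 left 5 rises. Gramd1b, a carrier of cholesterol from the cell membrane, had 1.77, 2.12 and 2.32 in the testes against 0.463, 0.297 and 0.322 in the ovaries (2.50 ± 0.23, adjusted p = 2.41e-10), and Hpgd, which breaks down prostaglandins, was 1.40 ± 0.37 higher (adjusted p = 0.00350). Of the genes of cholesterol synthesis and uptake 8 of 17 were higher and 2 lower (median 0.45). Idi1, an enzyme of isoprenoid synthesis, had 3.15, 2.68 and 3.21 in the testes against 0.720, 0.945 and 0.801 in the ovaries (1.86 ± 0.16, adjusted p = 5.05e-11), while Fdft1, the squalene synthase, was lower (-1.12 ± 0.26). The count of rises was 3 when each array was centred on its median, and 5 without testis 3, without ovary 2 or without ovary 3.

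Of the 6 measured genes of the adrenal cortex, 3 were higher than in wild-type ovaries and none was lower, 4 were lower than in Wnt4-null ovaries and none was higher, and 1 was higher than in Kit mutant ovaries and none was lower. Cyp21a1, the 21-hydroxylase of adrenal steroid synthesis, measured 0.329, 0.783 and 0.474 in the testes, against 0.0739, 0.0215 and 0.0119 in wild-type ovaries (3.71 ± 0.53, adjusted p = 1.33e-06). A second, dimmer probe set of Cyp21a1 gave 1.11, not called. The brighter one averaged 2.90 in Wnt4-null ovaries, and the testes were 2.45 lower than these. Cyp21a1 was the gene that was higher than in Kit mutant ovaries (2.20). Cyp11b1, the 11-beta-hydroxylase, was likewise 2.54 ± 0.57 higher than in wild-type ovaries and 2.11 lower than in Wnt4-null ovaries. Dlk1 was the third gene higher than in wild-type ovaries (0.93 ± 0.21). The list's summed signal was 4.93 to 6.25 in testes, 10.4 to 14.2 in Wnt4-null ovaries and 2.13 to 3.75 in wild-type ovaries. Dlk1 made up most of that sum in testes (mean 4.69) and in wild-type ovaries (mean 2.51).

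**Figure D4:**
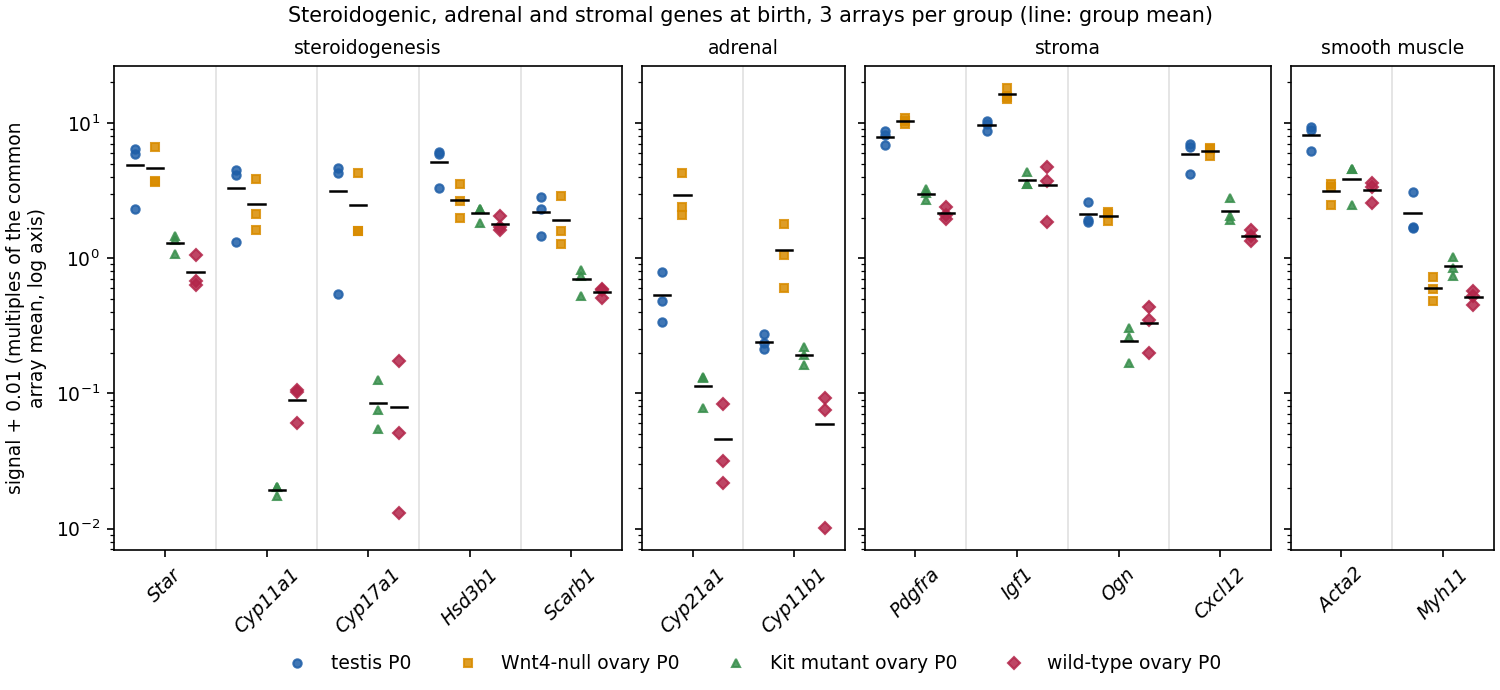
Signal + 0.01 (log axis, multiples of the common array mean) of 13 steroidogenic, adrenal and stromal genes, 1 point per array, in newborn testis (circles), Wnt4-null ovary (squares), Kit mutant ovary (triangles) and wild-type ovary (diamonds), 3 arrays each; black lines are group means. Star, Cyp11a1 and Cyp17a1 lie near each other in testis and Wnt4-null ovary and low in the 2 other kinds of ovary, Cyp21a1 and Cyp11b1 are highest in Wnt4-null ovary, and Acta2 and Myh11 are highest in testis.

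Interstitial stroma genes were higher in testis than in wild-type ovary for 10 of 21 measured members and lower for 2 (median 0.63). Pdgfra, the receptor of platelet-derived growth factor on interstitial progenitors, measured 8.70, 8.14 and 6.89 in the testes and 2.39, 2.08 and 1.93 in the ovaries (1.88 ± 0.20, adjusted p = 2.56e-09). Igf1, a growth factor made by stromal cells, had 9.89, 8.76 and 10.4 in the testes against 4.76, 1.86 and 3.73 in the ovaries (1.59 ± 0.23, adjusted p = 2.01e-06). Ogn, a small proteoglycan of the matrix, had 1.86, 2.61 and 1.92 in the testes against 0.428, 0.190 and 0.340 in the ovaries (2.76 ± 0.36, adjusted p = 2.04e-07). The ranges of these genes did not overlap. Cxcl12, a chemokine, was 1.99 ± 0.37 higher, Dcn 1.45 ± 0.28 and the stromal receptor gene Nr2f2 0.80 ± 0.18. Postn, a matrix protein, was not called (0.46 ± 0.59, adjusted p = 0.587). Testis 2 stood apart for it, with 4.43 where testes 1 and 3 read 0.352 and 1.09, and without testis 2 the difference was -0.47. Against Wnt4-null ovaries none of the 21 was higher and 4 were lower, Igf1 by 0.75 among them, and Pdgfra was not called (-0.39). The summed signal of the list was 78.0 to 118 in testes, 104 to 109 in Wnt4-null ovaries and 46.9 to 72.8 in wild-type ovaries.

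Of the collagen genes, a list of fibrillar chains that also holds other types such as VI, VIII and XII, 9 of 15 measured members were higher and 1 was lower. Col1a2, a chain of type I collagen, had 33.8, 40.0 and 35.4 in the testes against 22.8, 14.3 and 20.2 in the ovaries (0.95 ± 0.17, adjusted p = 4.09e-05). Col5a3 rose most (2.20 ± 0.49, adjusted p = 0.000739), while a second, dimmer probe set of Col5a3 gave 0.16, not called. Col8a1, a chain of the network-forming type VIII collagen, was the member that was lower, at 0.102, 0.360 and 0.312 in the testes and 1.36, 1.91 and 1.90 in the ovaries (-2.85 ± 0.65, adjusted p = 0.000882). Testis 2 had the highest signal of the testes for most of these chains and ovary 2 the lowest of the ovaries, and the count of rises was 5 without testis 2, 5 without ovary 2 and 12 without testis 1. Against Wnt4-null ovaries none rose and 1 fell, again Col8a1 (-2.78).

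Genes of the basement membrane, which surrounds the testis cords, were higher for 11 of 17 measured members and lower for 1. Lamc3, a laminin chain, measured 0.707, 0.462 and 0.876 in the testes and 0.0507, 0.0273 and 0.0137 in the ovaries (4.15 ± 0.38, adjusted p = 1.13e-10). Col4a4, a chain of type IV collagen, had 3.42, 3.11 and 3.69 in the testes against 0.385, 0.412 and 0.495 in the ovaries (2.96 ± 0.22, adjusted p = 1.51e-12). Lama2, a laminin chain that muscle cells also make, was 2.14 ± 0.28 higher. Against Wnt4-null ovaries 4 genes remained higher, Col4a4 (1.04), Lama2 (0.81), Sparc (0.49) and Col4a1 (0.33), and 2 were lower.

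Smooth muscle and peritubular genes were higher for 8 of 16 measured members and none was lower. Acta2, the smooth muscle actin that marks the peritubular myoid cells around the cords, measured 6.24, 8.83 and 9.39 in the testes and 3.35, 2.57 and 3.59 in the ovaries (1.35 ± 0.33, adjusted p = 0.00153). Other probe sets of Acta2 gave 1.13 and 0.18, neither called. Myh11, the smooth muscle myosin, had 1.67, 1.68 and 3.07 in the testes against 0.561, 0.441 and 0.513 in the ovaries (2.01 ± 0.24, adjusted p = 3.17e-08). Against Wnt4-null ovaries 6 genes of the list were higher and 1 was lower. Of the 6, Acta2 (1.37), Myh11 (1.80) and Actg2 (2.15) were also higher than in wild-type ovaries, whereas the other 3, Tagln (1.49) among them, were not called there (0.52 for Tagln). Des, an intermediate filament gene, was 1.37 ± 0.34 higher than in wild-type ovaries and not called against Wnt4-null ovaries (-0.37).

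Of 72 measured markers of vessel, blood, muscle and mesonephric cells that a whole gonad could hold, 3 were higher and 6 were lower. Of all autosomal genes 12.8% were higher and 17.4% were lower. Of 17 endothelial genes 1 was higher (the cadherin Cdh5, 0.97 ± 0.16) and 2 were lower, with a summed signal of 10.2 to 14.3 in testes and 10.6 to 12.2 in wild-type ovaries. None of 17 macrophage genes and none of 14 erythroid genes was called, with summed signals of 7.81 to 10.2 against 7.38 to 11.0 and of 1.81 to 3.31 against 2.66 to 3.43. Of 13 striated muscle genes 2 were higher and 1 was lower, with a summed signal of 2.96 to 4.41 against 2.46 to 3.55, and Myh3, an embryonic muscle myosin, was the larger rise (3.37 ± 0.84, adjusted p = 0.00217). Of 11 mesonephric duct and tubule genes 3 were lower and none was higher, with a summed signal of 2.23 to 2.63 in testes and 5.68 to 7.65 in wild-type ovaries. The sum was 1.88 to 2.36 in Wnt4-null ovaries and 1.6 to 2.14 in Kit mutant ovaries. Esrp1, a splicing factor of epithelia, made up most of the sum in wild-type ovaries. It measured 1.5, 0.603 and 1.25 in the testes against 4.35, 6.51 and 5.43 in these ovaries (-2.35 ± 0.64, adjusted p = 0.00445). The duct factor Gata3 was dim in both gonads (-2.92 ± 0.48). The part of mesonephric tissue in the differences was not tested. Against Wnt4-null ovaries 5 endothelial and 5 macrophage genes were lower in testis.

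Mitosis genes were higher for 7 of 24 measured members and lower for 2 (median 0.25). Mki67, a marker of dividing cells, was 1.41 ± 0.18 higher (adjusted p = 9.07e-08) and Birc5, which acts at the centromere, fell by 1.17 ± 0.15 (adjusted p = 2.25e-07). The count of rises was 4 when arrays were centred on their median. Against Kit mutant ovaries 19 of the 24 were higher and none lower (median 1.53), and against Wnt4-null ovaries 1 was higher and 2 were lower.

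In the hedgehog pathway, in which DHH from Sertoli cells acts on interstitial cells through the receptor PTCH1 and the factor GLI1, 4 of 12 measured members were higher and 1 was lower. Besides Dhh these were Ptch1, with 18.9, 17.8 and 15.3 in the testes against 4.42, 6.0 and 4.34 in the ovaries (1.83 ± 0.17, adjusted p = 2.23e-10), Gli1 (1.88 ± 0.59, adjusted p = 0.0146) and the inhibitor Hhip (5.92 ± 0.61, adjusted p = 2.11e-09). Ptch1, Gli1 and Hhip are themselves targets of the pathway. Gli1 lost its call without ovary 1 (1.45, adjusted p = 0.0939). Hhat, which attaches a fatty acid to the ligand, was lower (-1.73 ± 0.21). Against Wnt4-null ovaries Ptch1 (0.84) and Hhip (2.98) were higher, 3 genes were lower, Hhat (-0.98) and the factor Gli2 (-0.82) among them, and Gli1 (0.00) was among the 7 not called.

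In the Wnt pathway 12 of 26 measured members were lower and 3 were higher (median -0.77). The ligands and activators lower in testis included Wnt4, Rspo1 (0.599, 1.49 and 1.08 in the testes against 5.89, 5.63 and 5.05 in the ovaries, -2.47 ± 0.23) and Rspo2 (0.0187, 0.0335 and 0.0365 against 0.795, 1.83 and 1.46, -5.07 ± 0.48). Rspo2, which oocytes are known to express, was at a similar low level in Wnt4-null ovaries (mean 0.0189) and Kit mutant ovaries (mean 0.0552). A second, dimmer probe set of Rspo2 gave -0.27 against wild-type ovaries, not called. Known targets of the pathway were divided. Lower in testis were Axin2, at 0.579, 0.651 and 0.701 in the testes against 3.51, 3.79 and 4.95 in the ovaries (-2.63 ± 0.20, adjusted p = 1.79e-12), Lef1 (-1.80 ± 0.28), Nkd1 (-1.71 ± 0.22), Rnf43 (-2.41 ± 0.41) and Sp5 (-4.12 ± 0.52). Not called were Ccnd1 (-0.38 ± 0.30, adjusted p = 0.363), Nkd2 (-0.31 ± 0.26, adjusted p = 0.389), Notum (0.28 ± 0.34, adjusted p = 0.570), Znrf3 (0.14 ± 0.20, adjusted p = 0.652) and Dkk1 (0.81 ± 0.61, adjusted p = 0.339). Axin2 was also lower than in Wnt4-null ovaries (-1.13). Wnt5a, a ligand of stromal cells, was higher (1.40 ± 0.19), as was the inhibitor Wif1 (1.89 ± 0.40).

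In the TGF-beta family 8 of 31 measured members were higher and 8 were lower. The 3 activin and inhibin subunits of the list were higher, with Inhba at 16.8, 11.7 and 13.4 in the testes and 0.523, 0.414 and 0.217 in the ovaries (5.22 ± 0.48, adjusted p = 1.87e-10), Inhbb as given above and Inha 2.47 ± 0.33. None of the 3 was called against Wnt4-null ovaries (0.54, 0.04 and 0.83). Bmp5, a bone morphogenetic protein, was 2.61 ± 0.41 higher. Smad3, which passes on activin and TGF-beta signals, was lower, with 2.49, 2.75 and 2.44 in the testes against 8.33, 8.45 and 10.7 in the ovaries (-1.83 ± 0.12, adjusted p = 1.03e-13), and was not called against Wnt4-null ovaries (-0.25). Among retinoic acid genes 3 of 15 were higher, Cyp26b1 and Stra8 among them, and 1 was lower, Aldh1a2. Of 18 Notch pathway genes 5 were higher and 4 lower, with the ligand Jag2 (-3.34 ± 0.33) and the target Hey1 (-2.06 ± 0.23) among the falls. The shares over all autosomal genes were 12.8% higher and 17.4% lower, and whether any of these lists departs from them was not tested. The count of Notch rises was 1 without testis 3, 2 without testis 1 and 3 without ovary 2, and that of the retinoic acid rises was 1 without ovary 2 and 1 without ovary 3.

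To see which of these differences were there when the germ cells of the ovary enter meiosis, the contrast was set beside that at E13. Between the stages the difference changed upward for 649 autosomal genes (3.73%) and downward for 1112 (6.39%). The stages differ in genotype too. The methods give the loss of Wnt4 for the newborn testes, and the control ovaries at E13, unlike the newborn ones, are Foxl2+/- by their labels. Age and genotype therefore cannot be told apart in this change. Of the 26 defining markers measured, 12 changed. Zp2, Nobox and Gdf9 were not called at E13 (0.28, -0.06 and 0.13) and their differences changed by -7.91 ± 0.82, -6.85 ± 0.94 and -4.54 ± 0.47. Dppa3 averaged 17.1 in testes and 11.1 in ovaries at E13 (0.66, not called), and the difference changed by -8.79 ± 0.98 (adjusted p = 1.05e-07), with the testes at 0.0874 to 0.165 at birth. Dmrt1 averaged 3.21 in testes and 2.48 in ovaries at E13 (0.48, not called) and changed by 5.89 ± 0.69 (adjusted p = 3.11e-07), with the ovaries at 0.0252 to 0.0636 at birth.

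The supporting cell markers Sox9, Dhh, Foxl2, Irx3 and Runx1 had differences at E13 of 2.99, 5.80, -6.10, -5.30 and -3.92, and none of their changes was called. Cyp11a1 had its largest difference at E13, when testes averaged 36.1 and ovaries 0.00657 (10.86), and changed by -5.81 ± 0.91 (adjusted p = 3.38e-05). Hsd3b1 changed by -2.30 ± 0.49 (adjusted p = 0.00161), whereas Star (-0.31) and Cyp17a1 (-0.68) did not pass. Myh11 was not called at E13 (-0.46) and changed by 2.47 ± 0.34 (adjusted p = 3.63e-06). Outside the defining markers, the Nodal antagonist Lefty1 averaged 13.1 in testes and 0.288 in ovaries at E13 (5.39), and 0.107 and 0.128 at birth (-0.26, not called).

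**Figure D5:**
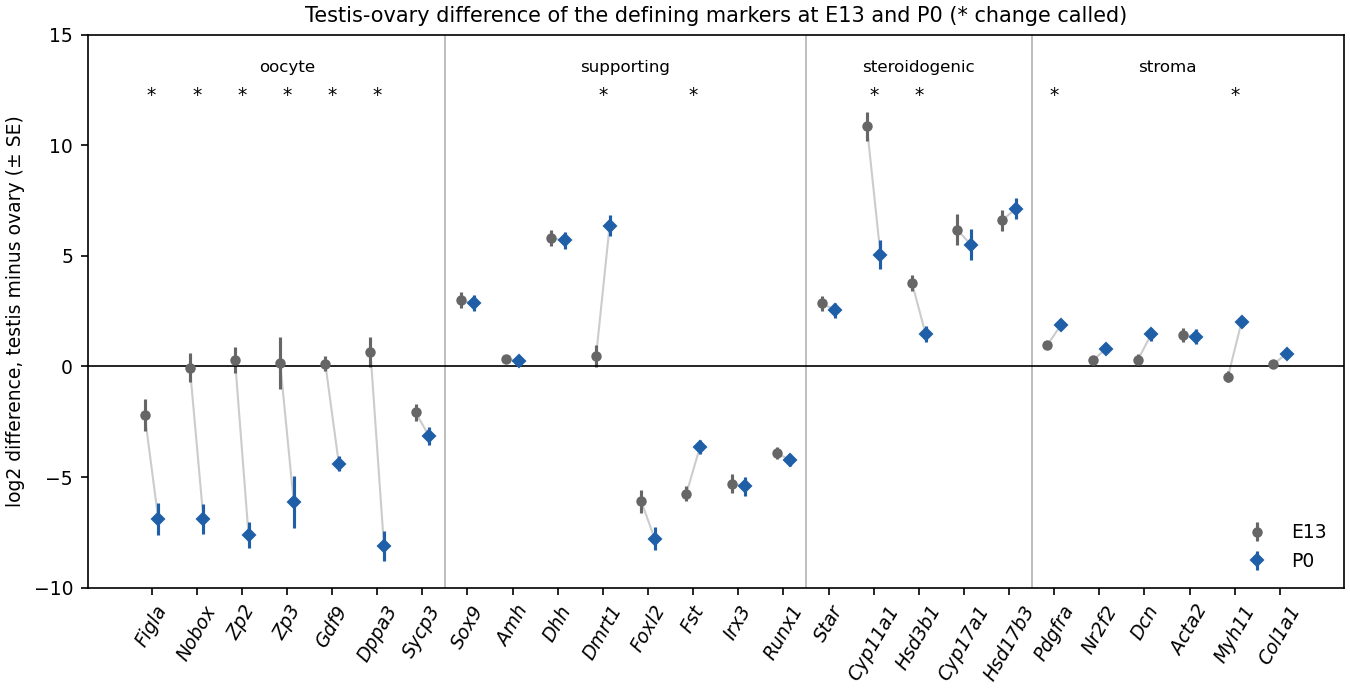
Log2 difference ± SE of testis minus ovary for the 26 measured defining markers at E13 (grey circles, against control ovary) and at birth (blue diamonds, against wild-type ovary), 3 arrays in each group; an asterisk marks a called change between the stages. Zp2, Nobox, Gdf9 and Dppa3 lie near 0 at E13 and between -8.12 and -4.40 at birth, Sox9 and Foxl2 lie far from 0 at both stages, and Cyp11a1 is at 10.86 and 5.06.

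Among the 10 largest rises whose groups did not overlap, 5 were genes of the Sertoli-cell list (Hsd17b3, Dmrt1, Cbln4, Dhh and Cst9) and 1 was Hhip of the hedgehog list. The others were Serpina5, an inhibitor of proteases, Cstdc1, a cystatin-like gene, Map3k21, a kinase, and Afp, alpha-fetoprotein. Serpina5 measured 1.64, 1.65 and 2.05 in the testes, against 0.0199, 0.00152 and 0.00117 in the ovaries (6.83 ± 0.51, adjusted p = 1.94e-12). It was dim in both gonads at E13, with means of 0.0289 in testes and 0.0221 in ovaries. Afp varied more, with 1.93, 0.801 and 1.77 in the testes and 2.28e-05, 0.00791 and 0.110 in the ovaries (5.66 ± 1.10, adjusted p = 0.000134). Other probe sets of Afp gave 4.71 and 4.57, called, and 0.73 and 0.18, not called. At E13 Afp was uneven within both sexes, with 1.2, 0.0451 and 0.0959 in testes and 0.153, 1.26 and 1.16 in control ovaries (-1.7, not called). Among the 10 largest falls, 6 were genes of the oocyte lists (Dppa3, Zp2, Lhx8, Figla, Nobox and Nlrp5) and 1 was Foxl2. The others, Stk32a (-6.79 ± 0.79), Ccdc201 (-6.26 ± 0.66) and C86187 (-6.19 ± 0.55), had means of 2.92, 1.13 and 3.94 in wild-type ovaries and of at most 0.418 in either kind of mutant ovary. The lists were chosen with earlier results of these data known. The number of list genes among the largest rises and falls is therefore a description and no test of the lists.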

How the data were processed

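RNA from the gonads of single mice, 1 mouse per array, was hybridised to Affymetrix MOE430 v.2 arrays. Per the labels and the study's methods, the authors summarised the probes with the plier algorithm in R, scaled every array to a global mean, and deposited linear intensity values. Their processing notes also name GCOS 1.3, with no role given. An intensity carries no read depth, so the number of arrays limits the precision.

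Groups came from the labels. Of 45071 probe sets, 64 controls were left out. The platform annotation gave 1 symbol for 34927 of the other 45007, several for 930 and none for 9150, and 34723 matched RefSeq. Where several probe sets named a gene, that with the highest mean signal stood for it, leaving 18184 genes, 17400 of them autosomal. Values were tested as log2(intensity + 1% of the common mean) by linear models in limma (version 3.58.1, R 4.3.3), with moderation by eBayes and an intensity trend, over 43 arrays in 15 groups, with 28 residual degrees of freedom. Tests were two-sided. P-values were adjusted with the Benjamini-Hochberg method over all genes, X-linked ones included, and a gene was called at an adjusted p below 0.05. The program Focus, named in the methods, was not used here.

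The members and the gene lists were chosen with earlier results of these data known, so the lists are described by counts and medians. Of 494 listed genes 453 were measured. Genes named in the text belong to these lists or were, in either direction, the top 10 called genes by size of difference with no overlap of the arrays and a higher group mean above the median signal of all probe sets. Each array stands for a separate mouse. The alternatives were other pseudocounts (0.1% and 5% of the common mean), quantile normalisation, median-centred arrays, a filter on dim genes, the mean of all probe sets, a fit on the compared groups alone, robust eBayes, a replicate block, and each array left out in turn. On simulated data made for testis against wild-type ovary over 18184 genes, the same fit recovered 48 of 100 genes changed by 1 on the log2 scale and 86 of 100 changed by 2, with 6 false calls among 140.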

Additional observations from a re-analysis of the deposited data

Results flagged for a closer look

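For 12 of the 26 measured defining markers the testis-ovary difference at birth departed from that at E13 in the limma test of the change itself (adjusted over all genes). Among oocyte genes the change was -4.70 ± 1.02 for Figla (adjusted p = 0.00184), for which the difference was -6.91 at birth and -2.21 at E13. It was -6.85 ± 0.94 for Nobox (adjusted p = 4.05e-06), -7.91 ± 0.82 for Zp2 (adjusted p = 3.12e-08) and -6.27 ± 1.66 for Zp3 (adjusted p = 0.0107). Gdf9 changed by -4.54 ± 0.47 (adjusted p = 3.12e-08) and Dppa3 by -8.79 ± 0.98 (adjusted p = 1.05e-07). These last 5 genes were not called at E13, where their differences lay between -0.06 and 0.66.

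Of the markers listed for supporting cells, Dmrt1, which also acts in germ cells, changed by 5.89 ± 0.69 (adjusted p = 3.11e-07). The cells in which it changed were not tested. Fst, the activin-binding protein of pre-granulosa cells, was lower in testis at both stages and changed by 2.10 ± 0.46 (adjusted p = 0.00218), with -3.65 at birth and -5.75 at E13. Of the steroidogenic genes Cyp11a1 changed by -5.81 ± 0.91 (adjusted p = 3.38e-05) and Hsd3b1 by -2.30 ± 0.49 (adjusted p = 0.00161), and both were higher in testis at both stages. With the mean of all probe sets of the gene the change of Cyp11a1 was -1.11 and not called (adjusted p = 0.0851).

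Of the markers listed for the stroma, Myh11 changed by 2.47 ± 0.34 (adjusted p = 3.63e-06). Pdgfra changed by 0.91 ± 0.28 (adjusted p = 0.0294), with 1.88 at birth and 0.97 at E13. That call was lost with median-centred arrays (0.80, adjusted p = 0.0518), with the compared groups alone (adjusted p = 0.0623) and with the mean of all probe sets (0.83, adjusted p = 0.145). It was also lost without E13 testis 2 (0.91, adjusted p = 0.0535) or 3 (0.88, adjusted p = 0.0670), newborn testis 1 (0.84, adjusted p = 0.0705) or 2 (0.89, adjusted p = 0.0571), E13 control ovary 1 (0.65, adjusted p = 0.142), or newborn ovary 2 (0.90, adjusted p = 0.0614) or 3 (0.84, adjusted p = 0.0730). Age, the genotype of the newborn testes and the Foxl2+/- label of the E13 control ovaries cannot be told apart in any of these changes.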

How the results depend on the processing

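Over 15 alternatives of testis against wild-type ovary and those of the change, 2460 values of the named genes kept their direction and their side of the threshold, 26 lost the call, 2 gained one and 6 changed sign. Centring each array on its median moved 3 counts by over 1.5 times, to 1343 higher against wild-type ovaries (2228 without centring), 613 higher against Wnt4-null ovaries (1126) and 420 upward changes (649). Leaving out each array in turn gave 1566 to 1976 higher and 2334 to 3075 lower against wild-type ovaries, 645 to 955 and 913 to 1336 against Wnt4-null ovaries, 1421 to 2064 and 2717 to 3253 against Kit mutant ovaries, 439 to 664 and 651 to 875 at E13, and 465 to 707 and 754 to 1364 for the change. The replicate numbers did not pair the arrays of testis and wild-type ovary, since same-numbered arrays correlated at -0.123, -0.0708 and 0.0286, and no number is tied to a litter by the labels. With a replicate block the counts were 2209 higher and 3047 lower against wild-type ovaries, 1084 and 1459 against Wnt4-null ovaries, 2106 and 3517 against Kit mutant ovaries, 632 and 886 at E13, and 654 and 1117 for the change. Leaving out 1 array at a time changed the sign of Postn (-0.47 to 1.33) and Tex19.1 (-0.38 to 0.14), both without testis 2, and of Gng13 (-1.76 to 0.76), without ovary 3, and of Znrf3 (-0.04 to 0.25), without ovary 2. Znrf3 also changed sign with median-centred arrays (-0.06) and Notum with quantile normalisation (-0.02), and none of these 5 genes was called. The mean of all probe sets ended the calls of Acta2 (0.89, adjusted p = 0.0760) and Des (0.64, adjusted p = 0.151) and made one for Nr5a1 (0.86, adjusted p = 0.00475), and the 2 groups fitted alone called Ddx4 (adjusted p = 0.0490). A filter on genes under the median level, which leaves fewer genes to test, gave 1565 higher and 2801 lower against wild-type ovaries. Causes were not tested. With 3 arrays a group, differences near 1 on the log2 scale could be missed. In the simulation 48 of 100 such genes were recovered. Far fewer genes were changed there than were called in the data, so this share does not measure the misses in the data. Values of genes far below the common mean are close to background, where the pseudocount sets the size of a difference.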
